A study of Mus musculus with 8 samples.

Results

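Interferon response genes are the genes that cells switch on when they sense viral nucleic acid or receive interferon. The 40 genes described here were chosen by name, as sensors, transcription factors, receptors, antiviral effectors, GTPases and chemokines of this response, in neurospheres grown from mouse embryonic stem cells. Of these 40 genes, 38 had a probe on the array under that name and 35 passed the filter on dim probes, out of 35513 named genes with a probe and 27120 that passed. No probe carried the names Ifi27 and Trim30a. Irf7, Oas3 and Mx1 had a probe that was not well above background on any of the 8 arrays, so that only an upper bound on their level was measured.

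RNA was measured on 8 single-colour arrays, 1 for each combination of 4 lentiviral vectors and 2 passages. All cultures started from the embryonic stem cell line EB3, which was grown as embryoid bodies with Noggin, an inhibitor of BMP signalling, then dissociated and grown for 6 days as floating neurospheres in 20 ng/ml FGF2. Primary neurospheres (P0) came straight from embryoid bodies, and tertiary neurospheres (P2) from the passage of secondary ones. The vectors carried a control shRNA against firefly luciferase (shCont), an shRNA against Nr2f1 and Nr2f2 together (shNr2f1/2, below the knockdown), a control miRNA against lacZ (miRCont) or miR-17 (miR17). Every culture, controls included, had thus received lentivirus, at an MOI of about 25, and cells without vector were not analysed here. The promoters of the vectors are not given in the sources used here. Each group had 1 array, so that single arrays were set against each other without a replicate. The fits across passages took as their error how far the passage difference varied between vectors, any effect of a vector on it included. Nothing in the labels tells whether these were independent cultures, so the p-values measure only the spread between the arrays.

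The arrays lay on 1 slide and were scanned once. Their upper-quartile intensity was 530 to 1065, and 57.9% to 67.9% of spots were well above background. The shRNA arrays lay in 1 column of the slide and the miRNA arrays in the other, and slide row went with passage and treatment, so these cannot be told apart. All 10 neural stem and progenitor markers (Sox2, Nes, Pax6 and others) were well above background on every array. Nr2f1 was lower by 0.79 log2 units with the knockdown at P0 and by 1.17 at P2, and Nr2f2 by 0.51 and 0.90.

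In the response itself, the sensors Ifih1 (MDA5) and Ddx58 (RIG-I) recognise double-stranded RNA, Irf3 and Irf7 then drive transcription of the interferon genes, and secreted type I interferon binds the receptor Ifnar1 with Ifnar2. Signalling from the receptor brings a complex with Stat2 and Irf9 to the interferon-stimulated response element (ISRE), while type II interferon acts through the gamma-activated site (GAS). Embryonic stem cells are known to respond weakly to interferon and to gain the response as they differentiate.

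Promoter windows of 300 bases, from 250 before to 50 after the annotated start, were taken from RefSeq (build GRCm38.p6) for 32 of the 40 genes. They were searched on both strands for the ISRE core, which is GAAA, then any 2 bases, then GAAA (TTTC, any 2 bases and TTTC on the other strand), and for the GAS, TTCNNNGAA, which reads the same on both strands. Matches of the same motif, and of both motifs, were allowed to overlap. An ISRE core match lay in a window of 17 of these 32 genes (53.1%), against 3.99% of all 27025 genes with a window. A GAS match lay in 11 (34.4%), against 9.55%. Neither motif was matched in the windows of Irf3, Irf7, Irf9, Oasl1, Oasl2, Trim25, Xaf1 and Ifi44, which says only that these letters are not there. Dhx58, Oas2, Mx1, Mx2, Usp18, Ifi27, Parp14 and Ccl5 had no window in the table.

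The stretches below are 100 bases upstream of the start of the 7 genes that had an ISRE core match there and whose values are given in full further on. They are shown so that the number, orientation and spacing of the matches can be read. Capitals mark the ISRE core matches and, in Igtp, also the GAS match that lies 5′ of it.
Ifit1, chr19:34640749-34640848, plus strand: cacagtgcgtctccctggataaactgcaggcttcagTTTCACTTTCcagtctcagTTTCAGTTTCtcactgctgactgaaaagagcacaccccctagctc
Ifit3, chr19:34583345-34583444, plus strand: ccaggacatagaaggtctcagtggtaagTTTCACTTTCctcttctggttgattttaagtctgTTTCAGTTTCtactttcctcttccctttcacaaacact
Gbp2, chr3:142620559-142620658, plus strand: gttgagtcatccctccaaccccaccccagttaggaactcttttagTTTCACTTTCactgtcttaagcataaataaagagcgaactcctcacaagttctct
Gbp3, chr3:142559944-142560043, plus strand: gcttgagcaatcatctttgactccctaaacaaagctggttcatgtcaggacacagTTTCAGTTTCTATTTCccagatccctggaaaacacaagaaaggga
Igtp, chr11:58199456-58199555, plus strand: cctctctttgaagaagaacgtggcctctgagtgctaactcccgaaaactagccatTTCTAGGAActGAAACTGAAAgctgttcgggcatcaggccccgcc
Irgm1, chr11:48871421-48871520, minus strand: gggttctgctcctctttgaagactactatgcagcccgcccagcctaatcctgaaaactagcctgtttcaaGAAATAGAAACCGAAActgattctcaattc
Cxcl10, chr5:92349040-92349139, minus strand: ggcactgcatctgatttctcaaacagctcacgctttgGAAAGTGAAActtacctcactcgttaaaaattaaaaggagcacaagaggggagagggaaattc
Ifit1 and Ifit3 each held 2 separate matches, and in Gbp3 and Irgm1 a pair of matches overlapped in a run of 3 repeats of TTTC or GAAA.

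**Figure D1:**
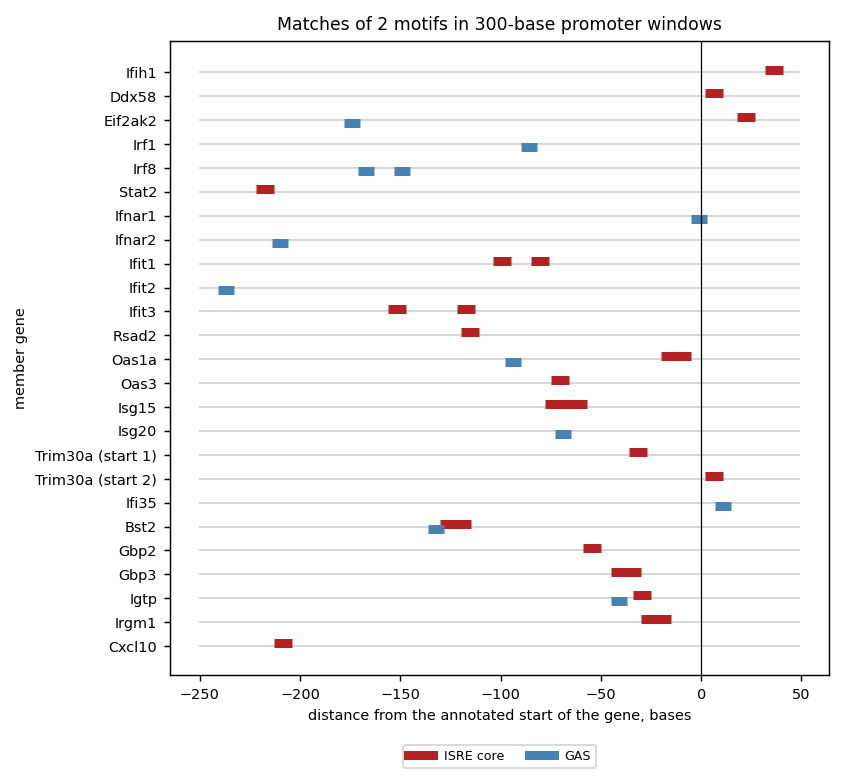
Matches of the ISRE core (red) and the GAS (blue) in the windows of the member genes that held any, by distance in bases from the annotated start (0, black line). A grey line is 1 window of 300 bases; Isg15 held 3 overlapping ISRE core matches, and the match in Cxcl10 lay at -213 to -204.

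Levels below are given in percent of the array's upper-quartile intensity, and a level not well above background is called dim. A level of 1 gene cannot be set against that of another, since their probes differ. Detection of the members depended on passage. In primary neurospheres 20 to 27 of the 38 members with a probe were well above background on an array, and in tertiary neurospheres 33 to 34. Over the 27120 genes tested the same counts ran from 22403 to 25374 at P0 and from 22755 to 25153 at P2. Ifit2, Ifit3, Oasl2, Ifi44 and Gbp3 were dim on all 4 primary arrays and entered the tests through their tertiary levels alone, so that their direction with passage was fixed by the filter. In bulk RNA, fewer cells with a transcript and less of it per cell cannot be told apart.

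**Figure D2:**
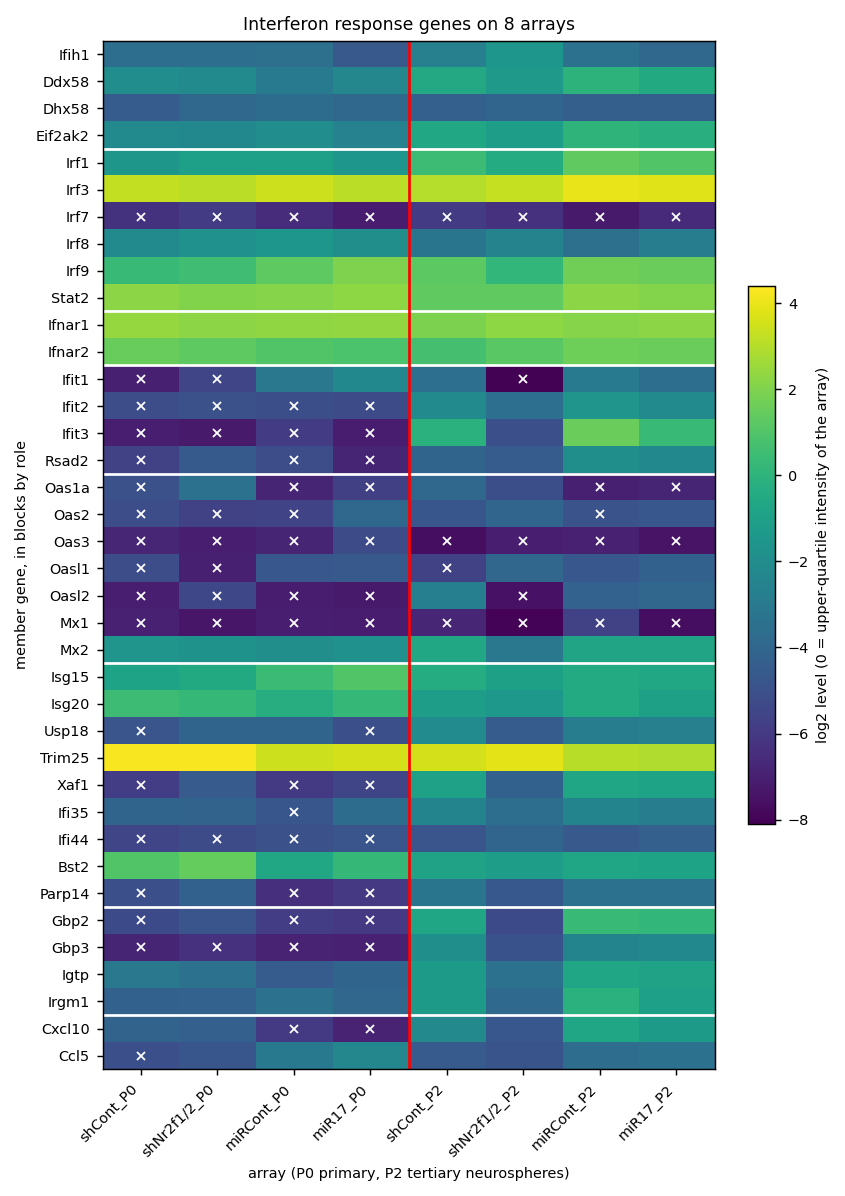
Log2 level of the 38 members with a probe (rows, in blocks by role) on the 8 arrays (columns, primary left and tertiary right of the red line), where 0 is the array's upper-quartile intensity; a white cross marks a level not well above background. Crosses fill many primary columns of the Ifit, GTPase and chemokine blocks, while the receptor block varies little.

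The first comparison asked how the genes differed between tertiary and primary neurospheres over the 4 vectors. Of the members 4 passed the test, all of them higher in tertiary neurospheres: Ifit3 and Ifit2, which encode antiviral proteins with tetratricopeptide repeats, Gbp3, a guanylate-binding protein, and Eif2ak2, the double-stranded RNA-activated kinase PKR. None passed in the other direction. Ifit2, Ifit3 and Gbp3 were dim on all primary arrays and passed the filter through their tertiary levels alone, so that their direction was fixed and the count of 4 is a description. Eif2ak2 was measured on every array. Of all genes tested, 2.61% were called higher and 2.36% lower (4.97% together), at an adjusted p under 0.05 in limma with Benjamini-Hochberg adjustment over all 27120 genes. Without the test, 24 of the 35 members were higher and 11 lower, with a median of 0.73 log2 units against -0.21 for all genes. With the dim members kept in as well, 25 of 38 were higher and the median was 0.59. Among the 18 members well above background on every array 10 were higher and 8 lower, with a median of 0.11. With the test fitted to genes measured on all 8 arrays alone, 6 of these 18 passed, 4 higher and 2 lower. In that fit 17.7% of all 20595 genes were called. At an unadjusted p under 0.05, 17 members were higher (13.9% of all genes) and 4 lower (26.1%), 40.1% of all genes being past it in 1 direction or the other. The 4 lower ones were Irf8, Isg20, Trim25 and Bst2.

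Vector by vector, each with 1 array a passage and no test, 18 members were at least 2-fold higher and 3 lower at P2 with the control shRNA, against 12.9% and 13.9% of all genes. With the control miRNA 17 were higher and 1 lower, against 15.9% and 28.3%, and with miR-17 15 and 6, against 15.4% and 28.0%. With the knockdown 8 were higher and 6 lower, against 6.36% and 8.19%. The member median was 1.14 for the control shRNA, 0.63 for the control miRNA, 0.72 for miR-17 and -0.09 for the knockdown. Ifit2, Ifit3, Oasl2 and Gbp3 were among the higher members with both controls and with miR-17. Among those with the knockdown were Ifit2, Ifit3, Ifi44 and Gbp3. All of these entered through their tertiary levels alone, so that their direction was fixed and these counts and medians are a description.

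The calls depended on single arrays and on the vector system. Leaving out either knockdown array, which takes that vector out of the passage difference, gave 16 members called, all higher, with 17.6% of all genes called. Leaving out any other array gave none, with no gene called over the whole table and 5796 to 8389 at an unadjusted p under 0.05. Within the 4 shRNA arrays no member was called (5008 genes at an unadjusted p under 0.05), and within the 4 miRNA arrays 20 were, 17 higher and 3 lower, with 50.7% of all genes called. Normexp background correction, which lifts dim values, reduced the fitted passage differences given below to 2.89 for Ifit3, 1.14 for Ifit2, 2.13 for Gbp2 and 1.66 for Xaf1, and that of Irgm1 to 1.45 with an adjusted p of 0.0490 in limma.

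Among the Ifit effectors Ifit3 (probe on chromosome 19 at 34663105 to 34663164, mm9, plus strand) was dim on all primary arrays, at 0.761% for the control shRNA, 0.675% for the knockdown, 1.71% for the control miRNA and 0.736% for miR-17. In tertiary neurospheres it stood at 92.2%, 2.98%, 292% and 131% in the same order. The tertiary knockdown array was far below the other tertiary arrays and still above every primary array. Ifit3 rose by at least 17.7-fold with passage, a bound that sets each primary array at its lowest level well above background, and its fitted difference was 5.99 log2 units (SE 0.99, adjusted p = 0.0437 in limma). Ifit2 (chromosome 19 at 34650244 to 34650303, plus strand) was dim at P0, at 2.79%, 3.08%, 2.95% and 2.61%, and measured 22.2%, 8.57%, 33.6% and 22.5% at P2. The groups did not overlap, and it rose by at least 5.95-fold (log2 2.77, SE 0.38, adjusted p = 0.0373 in limma). All 4 tertiary arrays lay above all 4 primary arrays for 10 members, where the share of all genes was 9.30%, and below them for 3, where it was 15.2%. Of the 10, Ifit2, Ifit3, Gbp3 and Ifi44 had entered through their tertiary levels alone, so their direction was fixed and nothing is read from the first count.

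Ifit1, on the same chromosome at 34723796 to 34723855, had another pattern. It was dim on both primary shRNA arrays (0.773% and 2.22%) and measured on the primary miRNA arrays (11.8% and 20.6%). At P2 it was at 8.51% in the control shRNA, dim at 0.384% in the knockdown, 12.6% in the control miRNA and 8.26% with miR-17. The fitted passage difference was -0.07 (SE 0.998, adjusted p = 0.960 in limma), and its sign turned to 0.53 under quantile normalization. Rsad2, which encodes viperin, was measured on 1 primary array (4.24% in the knockdown) and on all tertiary arrays, at 4.55% to 27.3%. Its difference of 2.38 (SE 0.75) had an adjusted p of 0.0879 in limma.

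The 4 GTPase genes act on membranes of intracellular pathogens. Gbp3 (chromosome 3 at 142236032 to 142236091, plus strand) was dim on the primary arrays at 0.893%, 1.23%, 0.830% and 0.813% in the order above, and stood at 27.3%, 3.28%, 18.0% and 20.7% on the tertiary ones. It rose by at least 4.20-fold (log2 3.87, SE 0.65, adjusted p = 0.0443 in limma), and without overlap. Since Gbp3 had entered through its tertiary levels alone, its direction was fixed by the filter. Under normexp background correction its difference was 1.11 and missed the threshold (adjusted p = 0.0515 in limma). Its relative Gbp2 (chromosome 3 at 142300719 to 142300778) was at 2.59% (dim), 3.58%, 1.75% (dim) and 1.56% (dim) at P0 and at 61.4%, 2.57%, 125% and 113% at P2. Here the tertiary knockdown array lay within the range of the primary arrays, and the difference of 4.11 (SE 1.21) did not pass (adjusted p = 0.0790 in limma). Irgm1 (chromosome 11 at 48679069 to 48679128, minus strand) was well above background throughout, at 5.38%, 5.52%, 9.63% and 6.35% at P0 and 40.8%, 7.10%, 91.6% and 48.7% at P2. Igtp, on the same chromosome at 58020927 to 58020986, measured 11.7%, 9.39%, 4.53% and 6.00% at P0 and 41.6%, 9.49%, 62.2% and 53.9% at P2. For both, 3 tertiary arrays lay above all primary arrays and the knockdown array did not. Their differences were 2.37 (SE 0.54, adjusted p = 0.0604 in limma) and 2.20 (SE 0.66, adjusted p = 0.0805).

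Of the sensors, Eif2ak2 (chromosome 17 at 79252168 to 79252227, minus strand) was measured on every array. Its level was 22.9%, 20.8%, 25.2% and 17.1% at P0 and 64.4%, 45.5%, 103% and 83.0% at P2, in the order control shRNA, knockdown, control miRNA and miR-17. The groups did not overlap, and the level rose 3.32-fold (log2 1.73, SE 0.26, adjusted p = 0.0408 in limma). Ddx58 had a difference of the same size with a wider error (1.73, SE 0.39, adjusted p = 0.0595 in limma) and no overlap either, from 12.8% to 25.2% at P0 and 39.7% to 99.2% at P2. Ifih1 ranged from 4.14% to 34.2% with overlap between passages. Dhx58 (LGP2, a regulator of the other RNA sensors) lay between 4.57% and 7.80% on all arrays.

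Of the transcription factors and receptors none passed. Irf1, which acts downstream of both interferon types, was 34.7% to 48.9% at P0 and 76.1% to 257% at P2, without overlap, and just missed the threshold (1.88, SE 0.37, adjusted p = 0.0531 in limma). Irf8, known best from myeloid cells, lay in the other direction, at 22.2% to 34.5% at P0 and 8.99% to 17.4% at P2 (-1.16, SE 0.26, adjusted p = 0.0603). Irf3, Irf9 and Stat2 were above 100% on every array and their passage differences were 0.28 (SE 0.23), 0.11 (SE 0.29) and -0.41 (SE 0.24). The receptor chains Ifnar1 (383% to 539%) and Ifnar2 (163% to 308%) were measured on all arrays, and their differences of -0.20 (SE 0.19) and 0.10 (SE 0.32) were close to the size of their errors.

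The OAS and Mx enzymes, which make the second messenger of RNase L or block viral nucleocapsids, held few measurable members. Oasl2 (chromosome 5 at 115362168 to 115362227, plus strand) was dim on all primary arrays at 0.761%, 2.41%, 0.703% and 0.692%, and at P2 was 15.4%, 0.565% (dim), 5.52% and 6.43%. It was measured on 3 of the tertiary arrays and dim on that of the knockdown, and the passage test was not passed (2.11, SE 1.10, adjusted p = 0.207 in limma). Mx2 (chromosome 16 at 97782327 to 97782386) was at 33.9%, 30.1%, 26.0% and 28.8% at P0 and at 65.1%, 11.6%, 58.1% and 56.7% at P2. Again 3 tertiary arrays lay above all primary arrays, and the knockdown array lay below all of them. Oas1a, Oas2 and Oasl1 were well above background on 3, 4 and 5 arrays and nowhere above 9.53%.

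Of the 9 measured members from the ISG15 system and other induced proteins none passed. Xaf1 (chromosome 11 at 72127175 to 72127234, plus strand), an antagonist of the apoptosis inhibitor XIAP, was at 1.74% (dim), 4.44%, 1.56% (dim) and 2.20% (dim) at P0 and at 52.5%, 5.44%, 58.5% and 55.4% at P2, without overlap (3.77, SE 0.90, adjusted p = 0.0630 in limma). Its other probe, at 72122169 to 72122228, differed on the primary miRNA arrays, where it read 6.07% and 11.3%, and gave a passage difference of 0.86. Usp18, the protease that removes ISG15 and dampens the receptor (chromosome 6 at 121220874 to 121220933), was at 3.62% (dim), 5.89%, 5.87% and 3.01% (dim) at P0 and at 23.5%, 4.47%, 14.4% and 15.7% at P2. Isg15 itself (50.8% to 204%) had a difference of -0.62 (SE 0.38), and Isg20, an exonuclease, and Bst2, the tether that holds budding virions, were lower on every tertiary array than on any primary one (-1.17, SE 0.31, adjusted p = 0.0695 and -1.42, SE 0.43, adjusted p = 0.0820 in limma). Ifi35 and Ifi44 were higher on every tertiary array (1.32, SE 0.35 and 0.70, SE 0.21), and Parp14 had a difference of 1.75 (SE 0.60). The direction of Ifi44 was fixed by the filter, which it passed through its tertiary levels alone. Trim25, the ubiquitin ligase of RIG-I, was lower by 0.54 (SE 0.18), but 31 of the 60 bases of its chosen probe are a repeat of 2 bases, and its other probe gave a knockdown difference at P2 of -1.15 where this one gave 0.33.

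Of the chemokines, Cxcl10 (chromosome 5 at 92775781 to 92775840, minus strand), a T cell attractant, was at 5.75%, 5.27%, 1.57% (dim) and 0.867% (dim) at P0 and at 21.5%, 3.82%, 61.6% and 40.4% at P2. The tertiary knockdown array lay among the primary arrays, and the difference of 3.07 (SE 1.11) had an adjusted p of 0.108 in limma. Ccl5 ranged from 3.04% (dim, the primary control shRNA) to 20.2%, highest on the primary miRNA arrays.

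**Figure D3:**
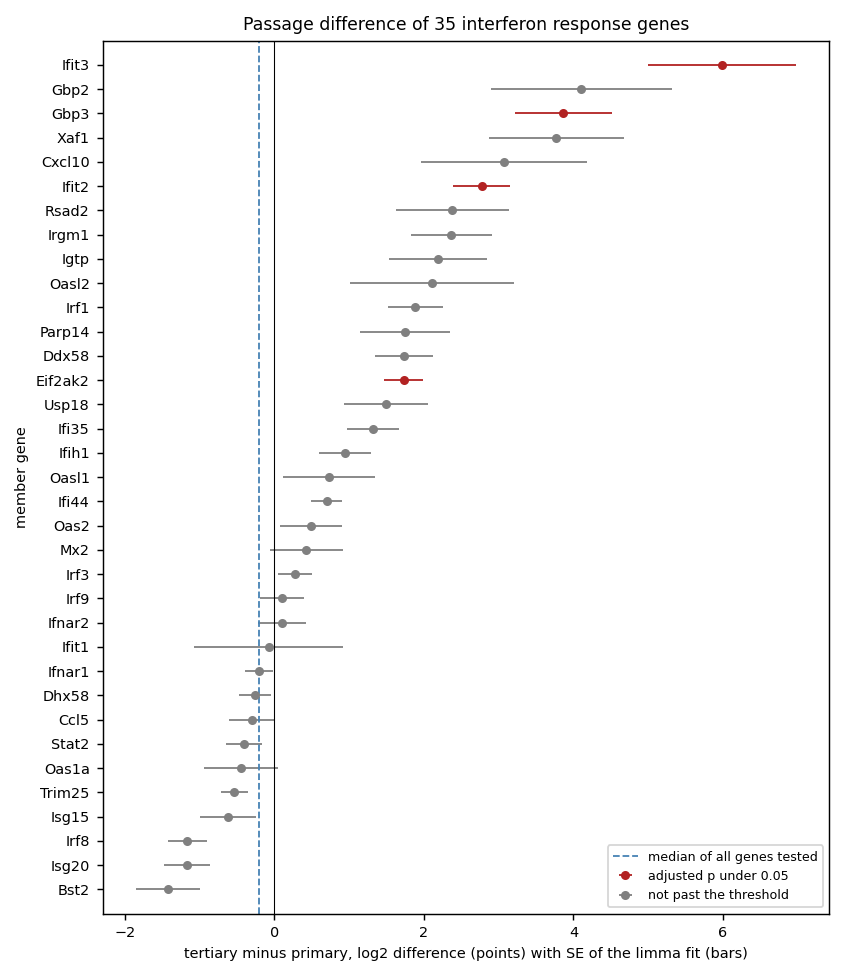
Tertiary minus primary log2 difference of the 35 tested members with the standard error of the limma fit over 8 arrays; red points passed an adjusted p of 0.05, and the dashed line is the median of all genes tested (-0.21). Ifit3, Gbp3, Ifit2 and Eif2ak2 passed, while Gbp2, Xaf1 and Cxcl10 had differences over 3 with errors of 0.90 to 1.21. The direction of Ifit3, Gbp3, Ifit2, Oasl2 and Ifi44 was fixed by the filter, which they passed through tertiary levels alone.

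The second comparison asked what the knockdown of Nr2f1 and Nr2f2 changed. In tertiary neurospheres 16 of the 35 members were at least 2-fold lower on the knockdown array than on the control shRNA array, against 9.88% of all genes, and 2 were at least 2-fold higher (Ifih1 and Oasl1), against 9.00%. In either direction 18.9% of all genes were past 2-fold. The member median was -0.76 and that of all genes 0.07. Of these, 11 members were at least 4-fold lower, against 3.03% of all genes: Ifit1, Ifit3, Oasl2, Mx2, Usp18, Xaf1, Gbp2, Gbp3, Igtp, Irgm1 and Cxcl10. No member was at least 4-fold higher. With 1 array on each side these counts describe the arrays and carry no test. Among the 32 members well above background on both arrays, 14 were at least 2-fold lower and 1 was higher, against 8.98% and 7.17% of all genes measured on both.

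By size, Ifit3 was lower by 30.9-fold, Gbp2 by 23.9-fold, Xaf1 by 9.65-fold, Gbp3 by 8.32-fold, Irgm1 by 5.75-fold, Cxcl10 by 5.62-fold, Mx2 by 5.60-fold, Usp18 by 5.26-fold and Igtp by 4.38-fold. Oasl2 and Ifit1, dim on the knockdown array, were lower by at least 8.39-fold and at least 4.64-fold. Under normexp background correction the log2 differences were smaller, with -3.52 for Ifit3, -2.99 for Gbp2, -2.31 for Xaf1 and -1.79 for Gbp3. All 4 GTPase genes were thus lower, as were 3 of the 4 Ifit and Rsad2 genes (Ifit2 by 2.58-fold, Rsad2 by 0.37 log2 units). Irf9, Oas1a, Ifi35 and Parp14 made up the rest of the 16, with log2 differences of -1.06, -1.22, -1.14 and -1.41. Among sensors, factors and receptors the differences ran both ways, with 1.12 for Ifih1, 0.71 for Irf8, 0.49 for Ifnar2, 0.33 for Ifnar1, 0.30 for Irf3, 0.28 for Dhx58, -0.01 for Stat2, -0.50 for Eif2ak2, -0.76 for Ddx58 and -0.87 for Irf1, beside Irf9. The knockdown array was the lowest of the 4 tertiary arrays for 24 of 35 members, against 33.3% of all genes.

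In primary neurospheres the same comparison gave other counts. Here 5 members were at least 2-fold higher (Ifit1, Rsad2, Oas1a, Oasl2 and Xaf1) against 4.49% of all genes, and Oasl1 was lower, against 1.22% (5.71% in either direction). In each of these 6 at least 1 of the 2 arrays was dim, and among the 20 members measured on both arrays none differed by 2-fold in either direction. Of all genes measured on both, only 1.25% were at least 2-fold higher and 0.454% lower, so that none of 20 is near that share. None of the 16 members that were lower at P2 was at least 2-fold lower at P0. Averaged over both passages no gene of the whole table was called for the knockdown in limma, with 517 genes (1.91%) and no member at an unadjusted p under 0.05.

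The difference between the passages was tested as an interaction, the change of the knockdown arrays from P0 to P2 minus the mean change of both control conditions. Ifit3, Oasl2 and Gbp3 were dim on all primary arrays and entered through their tertiary levels alone. For Oasl2 both knockdown levels were dim (2.41% at P0 and 0.565% at P2), so its change there was not measured. What follows is thus a description for these members. No gene passed in limma (1072, or 3.95%, at an unadjusted p under 0.05). At that unadjusted limit 8 members were lower, against 2.31% of all genes, namely Ifit3, Oasl2, Mx2, Xaf1, Parp14, Gbp2, Gbp3 and Irgm1, and Oasl1 was higher, against 1.64%. Ifit3 differed by -5.02 (SE 0.71), Gbp2 by -5.84 (SE 0.97), Oasl2 by -5.75 (SE 0.90) and Xaf1 by -4.78 (SE 0.70), all with an adjusted p of 0.9998 in limma over a single residual degree of freedom.

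**Figure D4:**
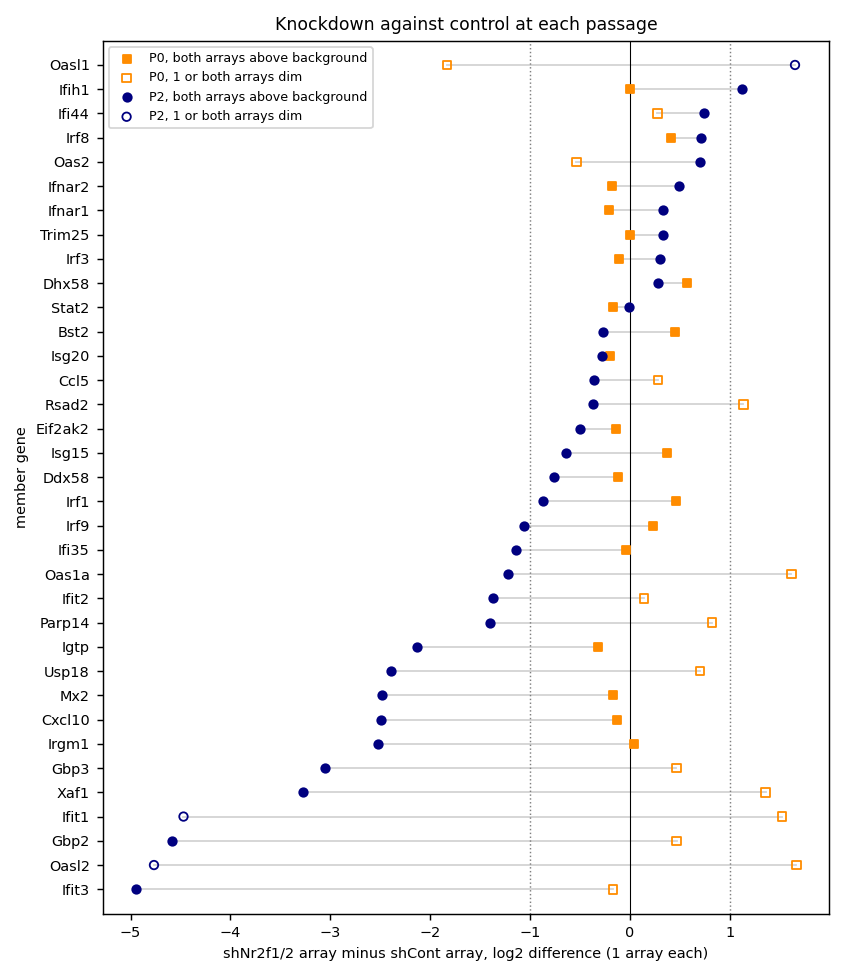
Knockdown minus control shRNA log2 difference of the 35 tested members at P0 (squares) and P2 (circles), 1 array on each side; open symbols have at least 1 dim array, and dotted lines mark 2-fold. At P2 the members spread from -4.95 (Ifit3) to 1.65 (Oasl1), while at P0 every symbol past a dotted line is open.

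Genes that were higher with passage on the miRNA arrays were looked at separately on the shRNA arrays, which share no sample with them. Of the members 15 were at least 2-fold higher at P2 in both miRNA conditions, and 11 of them were at least 2-fold lower in the tertiary knockdown (73.3%). Among these 11, Ifit2, Ifit3, Oasl2 and Gbp3 were dim on all primary arrays and entered through their tertiary levels alone. Their direction with passage was thus fixed by the filter, and nothing is read from the 73.3%. Over all genes the same selection held 3413 genes, of which 43.2% were at least 2-fold lower in the tertiary knockdown. Of the other 20 members 5 were lower (25.0%), against 5.09% of the other genes. Over all genes, the share that was low in the tertiary knockdown was larger among those higher with passage on the miRNA arrays than among the rest. The same filter acted on these genes, and how many entered through tertiary levels alone was not counted. The difference in share between members and other genes was not tested.

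**Figure D5:**
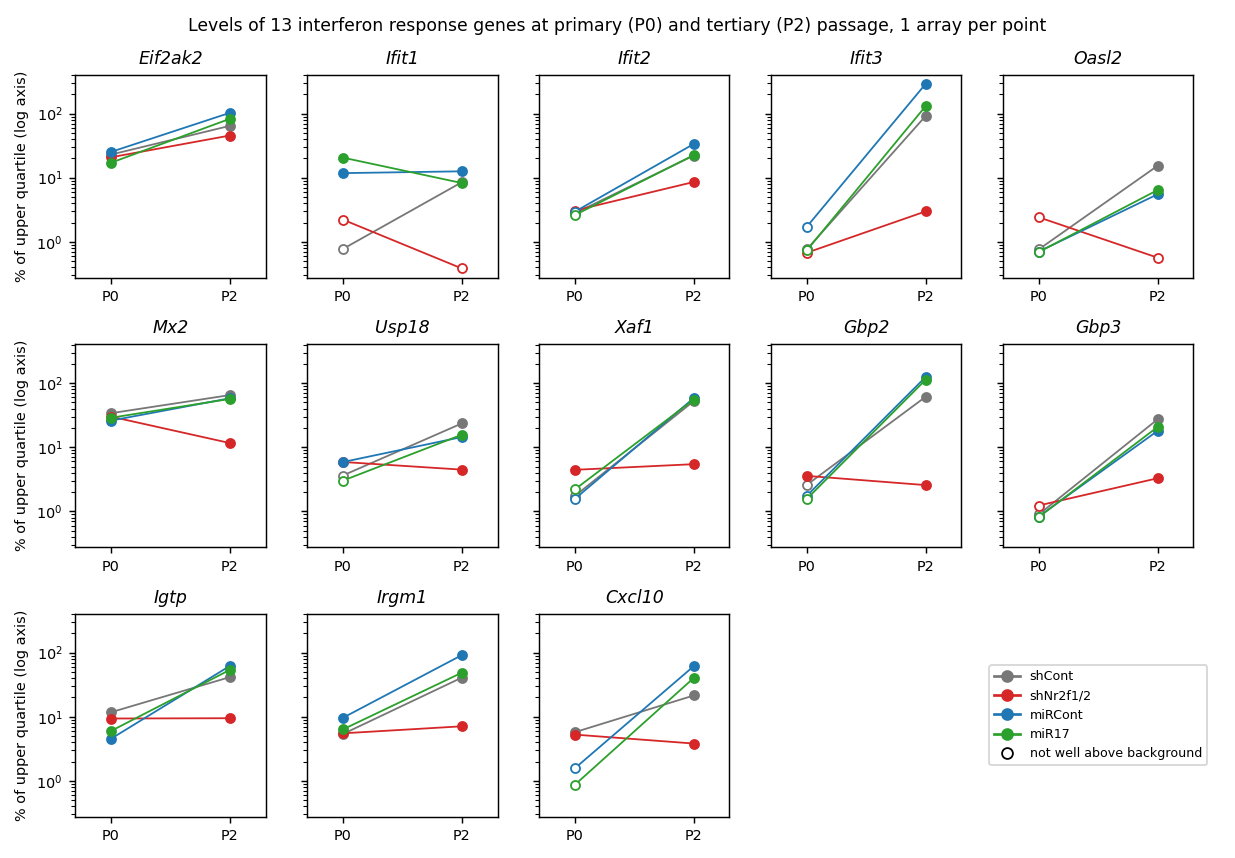
Level in percent of the upper quartile (log axis) of the 13 members that passed the passage test or differed at least 4-fold with the knockdown, at P0 and P2, 1 array per point and 1 line per vector; open points are not well above background. In all 13 panels the red knockdown point is the lowest at P2, also in Eif2ak2 and Ifit2. The 11 others were chosen for a tertiary knockdown level at least 4-fold below its control, so their low point follows largely from the choice. Over all 35 tested members the tertiary knockdown array was the lowest for 24 and the highest for 8. Ifit1 alone is measured on primary miRNA arrays but on no primary shRNA array.

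Overexpression of miR-17, a miRNA of the miR-17-92 cluster, was compared with the control miRNA. At P0 Oas1a, Oas2 and Ifi35 were at least 2-fold higher, against 4.60% of all genes, and Ifih1, Ifit3 and Rsad2 lower, against 2.16% (6.76% in either direction). Ifih1 (8.90% in the control, 4.14% with miR-17) was the only one of these with both arrays above background. At P2 no member was higher, against 4.16%, and Ifit3 was lower by 1.15 log2 units, against 1.94% of all genes (6.10% in either direction). No gene was called over both passages (269, or 0.992%, at an unadjusted p under 0.05, no member among them) or for the interaction with passage (294, or 1.08%, again without a member) in limma. The member medians were 0.12 at P0 and -0.13 at P2.

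The control arrays differed among themselves by amounts that set the scale for these differences. Between control miRNA and control shRNA, 4 members were at least 2-fold higher at P0 (Ifit1, Ifit3, Isg15 and Ccl5; 16.6% of all genes) and 5 lower (Oas1a, Bst2, Parp14, Igtp and Cxcl10; 5.09%), where 21.6% of all genes were past 2-fold in either direction. Ifit3, Oas1a and Parp14 were dim on both of these arrays and Ifit1, Ccl5 and Cxcl10 on 1 of them. Among the 18 members measured on both, 1 was higher and 2 were lower, against 8.36% and 4.25% of all genes measured on both. At P2, 5 were higher (Ifit3, Rsad2, Gbp2, Irgm1 and Cxcl10; 10.9%) and 2 lower (Oas1a and Oasl2; 13.7%), with 24.7% in either direction. The largest of the tertiary differences in the upward direction were 2.22 for Rsad2 and 1.66 for Ifit3, and Oas1a, dim on the control miRNA array, was lower by at least 2.19-fold. No gene passed over both passages in limma (2599, or 9.58%, at an unadjusted p under 0.05, among them Ccl5, Oas1a and Trim25).

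Beyond the 40 members, 110 further genes of the pathway were listed, of which 95 had a probe and 82 passed the filter. Of these 82, 5 were called higher with passage and none lower, against 2.61% and 2.36% of all genes, and the median of the 82 was 0.07. Among the 5, Irgm2, a GTPase of the family of Irgm1, was dim on all primary arrays and rose by at least 3.61-fold (log2 3.42, SE 0.47, adjusted p = 0.0373 in limma). It passed the filter through its tertiary levels alone, so that its direction was fixed. Ifi204, a DNA-binding protein, rose by at least 1.54-fold and Parp12 by at least 3.25-fold, both with dim primary levels. Cmpk2, a mitochondrial nucleotide kinase, rose 2.64-fold and Il10rb, a receptor chain of type III interferon, 3.59-fold. The count of 5 is therefore a description. In the tertiary knockdown 18 of the 82 were at least 2-fold lower, against 9.88% of all genes, and 2 higher (Il28ra and Tmem173), against 9.00%. Of the 18, 17 were from the 47 other induced genes. The largest of these measured on both arrays were Gbp6 (-3.50), Irgm2 (-2.73) and Rtp4 (-2.60).

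The interferon genes themselves were looked at next. Of 12 interferon genes with a probe Ifnb1, Ifng, Ifne and Ifna4 were dim on all 8 arrays. The other 8, mostly of the Ifna family, whose near-identical copies a probe may not separate, ranged from 3.62% to 35.2%, were all lower at P2 in direction (median -0.77), and none passed. The receptor-linked kinase Jak1 had a difference of 1.45 (SE 0.30, adjusted p = 0.0545 in limma), and 11 of 11 genes for receptors and signalling were measurable.

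Markers of other cell types differed with passage and with the knockdown too. With passage, 2.61% of all genes were called higher and 2.36% lower. Of 12 astrocyte markers 7 were called higher in tertiary neurospheres. The summed level of the 12 was 2370% to 2729% at P0 and 36419%, 10756%, 95306% and 81122% at P2 for control shRNA, knockdown, control miRNA and miR-17. Of these markers 11 were at least 2-fold lower in the tertiary knockdown, against 9.88% of all genes. Of 12 oligodendrocyte lineage markers 6 were called higher, with sums of 872% to 1335% at P0 and 14720%, 1528%, 40282% and 43605% at P2. For both lists the tertiary knockdown array had the lowest of the tertiary sums, and that sum lay above all primary sums. Proliferation genes, none of the 10 called, went the other way. Their sums were 2215% to 2588% on the 3 tertiary arrays other than the knockdown, 9945% in the tertiary knockdown and 9516% to 14134% at P0. Of the 10 neuron markers with a probe 1 was called lower. None of them was past 2-fold in the tertiary knockdown, where 18.9% of all genes were. Neuron sums ran from 12330% to 28780% at P0 and from 8062% to 12884% at P2. Mesenchyme and crest markers, 3 of 9 called higher, summed to 944% to 3865% at P0 and 3927% to 9694% at P2. Pluripotent cell markers, 4 of 9 called lower, summed to 1133% to 2863% at P0 and 348% to 551% at P2. The part of these cells in the interferon response values was not tested. Of the 11 microglia and macrophage markers with a probe none was called and 6 to 7 were well above background on each array. Csf1r, Itgam and Cd68 were among these on all 8, while Cx3cr1, Tyrobp and Trem2 were dim on all 8. The sum ran from 3011% to 17410% at P0 and from 2858% to 6025% at P2. Of the 8 lymphocyte markers 2 to 4 were well above background on an array, Cd3e and Cd4 on all 8, and Cd3d and Cd8a were dim on all 8, with sums of 348% to 525% at P0 and 428% to 655% at P2. Endothelial markers, none of them called, summed to 748% to 1094% and 801% to 1522%.

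The motif classes were set beside the values as a description. The 15 tested members with an ISRE core match had a median passage difference of 1.73, in a range of -1.42 to 5.99. For the 14 with a window but no match it was 0.49, in a range of -1.17 to 3.77. Ifit3 and Gbp3 among the 15, and Ifit2, Oasl2 and Ifi44 among the 14, entered through their tertiary levels alone. Their direction was thus fixed by the filter, and the difference between the medians was not tested and nothing is read from it. In the tertiary knockdown 8 of the 15 and 5 of the 14 were at least 2-fold lower. Among the 419 other genes tested with an ISRE core match the median passage difference was 0.01 and 14.3% were at least 2-fold lower in the tertiary knockdown, and among 11693 without one the values were -0.02 and 11.7%. Xaf1 and Oasl2, with no match in their windows, were among the members lowest in the tertiary knockdown, and Bst2 and Isg15, with 2 and 3 matches, were not.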

How the data were processed

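The deposited scanner files, read with Agilent Feature Extraction 10.7.3.1 per the submitters' processing notes, hold 1 intensity for each spot after spatial detrending and background subtraction, per the file headers; probe coordinates are mm9, per the file headers. Signal values in the authors' own deposited table equal that intensity over a constant per array (481 to 949) and served as an alternative. Control and outlier spots were left out, log2 intensities were averaged per probe, and each array's 75th percentile was subtracted. A gene was read by its probe with the highest mean and tested where 2 or more of the 8 arrays had it well above background. The fit (limma 3.58.1 in R 4.3.3) had terms for vector and passage (3 residual degrees of freedom) or their interactions too (1), two-sided, with Benjamini-Hochberg adjustment. Single arrays were compared at 2-fold with no test. "At least" folds set a dim array at its lowest measurable level, or at the probe's own where that was higher. Members, lists and motifs were chosen with earlier results of these data known. Values on every array are given for members called with passage or at least 4-fold apart from their control. Depth has no counterpart on arrays; their number limits the precision. Results for 1 further gene of the pathway are not reported here.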

Additional observations from a re-analysis of the deposited data

Results flagged for a closer look

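The levels read on the knockdown array and its control differed by at least 2-fold in opposite directions at the 2 passages for 5 members, a difference between passages that was not tested beyond the interaction given above. Ifit1 differed by 1.52 log2 units at P0 and by -4.47 at P2, Oasl2 by 1.67 and -4.77, Xaf1 by 1.36 and -3.27, and Oas1a by 1.62 and -1.22. Oasl1 ran the other way, with -1.83 at P0 and 1.65 at P2. On the primary arrays both levels were dim for Ifit1, Oasl2 and Oasl1, so that no difference was measured there. The primary control was dim for Oas1a and Xaf1, which were higher by at least 2.96-fold and at least 1.38-fold. On the tertiary arrays 1 level was dim for Ifit1 and Oasl2 (at least 4.64-fold and 8.39-fold lower) and for Oasl1 (at least 3.07-fold higher).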

How the results depend on the processing

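No paired analysis was possible because the labels carry no replicate numbers to pair by. The fit already compared passages within each vector, and without that vector term (no replicate block) it called 11 members, with 14.4% of all genes called. The 4 passage calls became 9 (6 higher, 3 lower) under normexp background correction and 10 (8 higher, 2 lower) with a trended prior. They became 6 (4 higher, 2 lower) with the filter on all 8 arrays and 20 in the miRNA arrays alone. No member was called in the control conditions alone or in the shRNA arrays alone, and 0 to 16 were with 1 array left out. The share of all genes called moved too, from 4.97% to 25.9% under normexp, 15.9% with the trended prior, 17.7% with that filter and 50.7% in the miRNA arrays. A larger count of members is thus not a result about the members. Ifit1's passage difference of -0.07 turned to 0.53 under quantile normalization, to 1.78 in the control conditions and 0.46 in the shRNA arrays, and ran from -1.25 to 0.75 with 1 array left out; that of Mx2 turned to -0.22 in the shRNA arrays. The knockdown count at P0 of 6 became 0 under normexp, 0 with a filter on all 8 arrays, 0 among members above background on both arrays (chosen after seeing the data) and 3 at 3-fold; at P2, 18 became 5 with that filter. For miR-17 the P0 count of 6 became 0, 1 and 1 under the same 3 settings, 15 at 1.5-fold and 2 at 3-fold, and the P2 count of 1 became 2 with no filter, 0 with the filter on all arrays, 5 at 1.5-fold and 0 at 3-fold. The control count of 9 at P0 became 3, 3 and 3, then 18 and 4, and that of 7 at P2 became 4 under normexp, 1 with the filter, then 19 and 3. Quantile normalization moved the median of all genes with passage from -0.21 to -0.04. The cause was not tested, except that filters and subsets test fewer genes or arrays. Signal near background limits all members dim at P0.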
